A study of Mus musculus with 6 samples.

Results

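The genes described here encode the extracellular matrix of fibroblasts and the proteins that assemble, modify and degrade it, and they were taken as a list of 47 symbols grouped by function. All 47 were among the 23725 genes of the count table. Extracellular vesicles (EVs) of MLP29, a mouse liver progenitor line, were added for 24 h to 3T3-L1 cells, which are fibroblasts of mouse embryonic origin, and RNA was sequenced to learn how the EVs change the fibroblasts. Independent EV preparations, on average 20 µg of EV protein each, were given to 3 plates (EV libraries 1, 2 and 4), and 3 other plates received a preparation obtained in the same way from medium that no cells had conditioned (control libraries 1, 2 and 3). All plates were kept in HEPES-containing complete DMEM from which serum vesicles had been removed, and no group carried a genetic change. One fibroblast line was studied, so the values hold for that line and for EVs enriched by centrifugation.

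Fibroblasts are the main makers of connective tissue matrix. Collagen chains are joined into a triple helix in the endoplasmic reticulum with the help of prolyl and lysyl hydroxylases and a dedicated chaperone, are trimmed outside the cell by procollagen proteinases, and are then crosslinked by lysyl oxidases. Type IV collagen, laminins and nidogen form the sheet-like basement membrane, fibronectin and the matricellular proteins link matrix and cell, and metalloproteinases and their inhibitors (TIMPs) set the rate of turnover.

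The control libraries summed to between 539735 and 665465 counts and the EV libraries to between 508599 and 629040. Of 23725 genes, 8404 were at 0 in every library, and 5066 had enough counts for a test. With edgeR's quasi-likelihood test, 732 genes were lower and 389 were higher in EV libraries at an adjusted p of 0.05, and without TMM factors, scaled by total library size, the split was 970 lower to 90 higher. Of 10 markers of fibroblasts none was at 0 in every library, although Twist1 and Twist2 were below the filter and at 0 in EV library 1. Their summed count over all 10 was 481 to 587 in control and 204 to 305 in EV libraries. Vim, which encodes the mesenchymal filament protein vimentin, had 183, 202 and 197 counts in control and 55, 87 and 81 in EV libraries. Of the 8 fibroblast markers tested, 3 were lower (Vim, S100a4 and Dlk1), and Pdgfra and Prrx1 had log2 fold changes of -0.16 and -0.10 that did not pass. Markers of liver progenitors and hepatocytes were nearly absent, with 7 of 10 at 0 in every library and sums of 10 to 13 in control and 11 to 13 in EV libraries, most of it from Sox9. Of the adipocyte markers, 4 of 8 were at 0 in every library, with sums of 111 to 168 in control and 79 to 106 in EV libraries, nearly all of it from Lpl. The part of these changes in the results below was not tested.

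The libraries were made with a kit that keeps the strand, but the strand setting used when reads were counted is not given in the sources used here. Some genes share exonic bases with a different gene that runs on the opposite strand. They were 24.5% of those matched in GENCODE, and they held 58.6% to 60.3% of the counts of control libraries and 62.9% to 63.5% of those of EV libraries. The values below are therefore counts as listed per gene identifier and do not stand for mRNA levels.

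The start regions of 3 collagen genes whose counts fell and for which a sequence was at hand are shown, since they carry the promoter letters discussed next. They are RefSeq sequences of GRCm38.p6 and run from 250 bases before to 50 bases after an annotated start. For Col4a1 that start lies inside the outer bounds of the gene given below. The sequences are read along the strand of the gene, which is the plus strand for Col1a2 (chr6:4505368-4505667) and Col3a1 (chr1:45311288-45311587) and the minus strand for Col4a1 (chr8:11312777-11313076). Capitals mark the letters CCAAT, written ATTGG where the match is on the other strand. They also mark the letters of the TATA box, TATAAA, and of the GC box, GGGCGG, the latter written CCGCCC where the match is on the other strand.
Col1a2: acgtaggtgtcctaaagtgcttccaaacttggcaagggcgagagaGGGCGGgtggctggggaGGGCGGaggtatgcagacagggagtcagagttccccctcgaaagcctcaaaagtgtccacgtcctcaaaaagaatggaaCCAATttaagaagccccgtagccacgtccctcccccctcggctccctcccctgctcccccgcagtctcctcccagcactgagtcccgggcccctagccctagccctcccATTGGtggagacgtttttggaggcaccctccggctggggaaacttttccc
Col3a1: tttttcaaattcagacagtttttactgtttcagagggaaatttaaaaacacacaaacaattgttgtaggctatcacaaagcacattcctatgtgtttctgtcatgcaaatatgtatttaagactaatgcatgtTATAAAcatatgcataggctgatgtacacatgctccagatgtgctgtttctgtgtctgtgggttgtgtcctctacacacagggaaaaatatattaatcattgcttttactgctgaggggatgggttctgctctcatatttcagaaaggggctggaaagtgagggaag
Col4a1: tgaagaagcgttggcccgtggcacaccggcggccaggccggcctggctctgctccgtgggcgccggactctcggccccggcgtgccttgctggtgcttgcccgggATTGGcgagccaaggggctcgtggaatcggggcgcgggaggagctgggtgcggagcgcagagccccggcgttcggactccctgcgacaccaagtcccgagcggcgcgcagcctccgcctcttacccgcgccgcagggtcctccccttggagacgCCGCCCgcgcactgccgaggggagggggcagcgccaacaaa

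The Col1a2 window held 2 CCAAT and 2 GGGCGG matches, the Col3a1 window 1 TATAAA match and neither of the other motifs, and the Col4a1 window 1 CCAAT and 1 GGGCGG match. Col4a1 and Col4a2 are head-to-head neighbours, and their windows share 78 bases. Of the 47 genes, 31 had such a window in the RefSeq table and 16 did not, Col1a1 and Fn1 among the latter. With both strands searched and 1 window used per gene, CCAAT was in 11 of the 31 windows (35.5%), against 38.0% of all 27025 windows and 39.2% of the 17491 windows of protein-coding genes. TATAAA was in 5 windows (16.1%), against 14.2% and 13.3%, and GGGCGG was in 25 windows (80.6%), against 35.9% and 46.3%. A match is a description of the letters and not a site of binding.

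Levels are given below as raw counts or as CPM, the count scaled by the TMM-adjusted library total over the tested genes. The counts listed under the matrix genes were lower in EV libraries across all classes. Together they made up 0.738%, 0.824% and 0.676% of all counts in control libraries 1, 2 and 3 and 0.374%, 0.422% and 0.453% in EV libraries 1, 2 and 4, which is 0.746% ± 0.0739 (SD, n = 3) against 0.416% ± 0.0395 (SD, n = 3). The EV libraries were all lower than the control libraries. In bulk libraries, fewer cells of a type and less RNA per cell cannot be told apart.

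Of the 47 genes, 39 passed the filter on low counts, 24 of these were lower in EV libraries and none was higher, where 14.4% of all tested genes were lower and 7.68% were higher. None of the 39 was higher with DESeq2 either, and at an unadjusted p of 0.05 in edgeR's test Loxl2 alone was higher. The log2 fold change was below 0 in 38 of 39, against 48.8% of all tested genes, and 29 of 39 had EV libraries that were all below the control libraries, against 21.5% of all tested genes. The median log2 fold change was -0.75 (0.594-fold), with a range from -1.46 (Lama4) to 0.23 (Loxl2), beside a median of 0.014 over all tested genes. Leaving out control library 2 lowered the number of lower genes to 19, where 8.29% of all tested genes were lower. Without EV library 1 the median was -0.61.

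**Figure D1:**
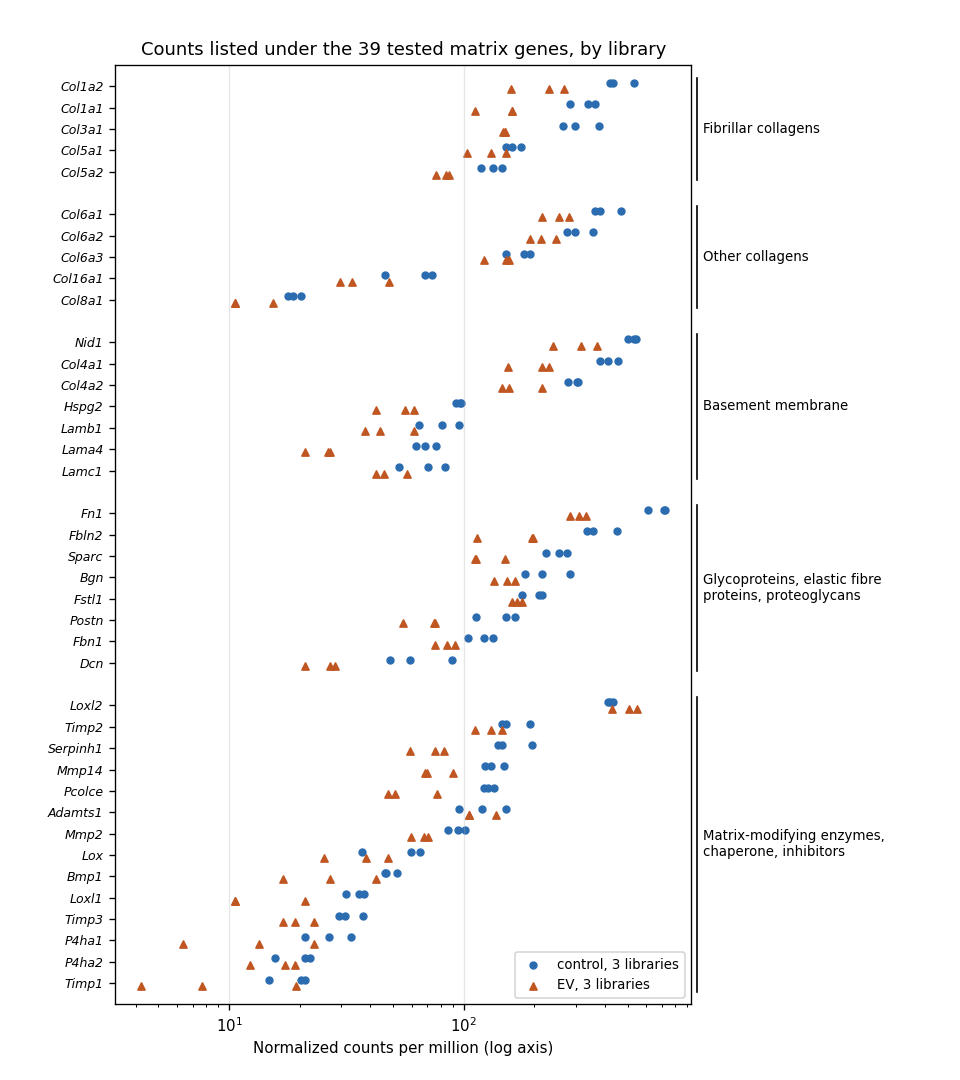
TMM-normalized CPM, on a log axis, of the 39 tested matrix genes in each of the 3 control libraries (circles) and 3 EV libraries (triangles), ordered within class by the control mean. In 29 genes every triangle lies left of every circle, and Loxl2 is the only gene whose EV mean lies to the right of its control mean.

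The same direction was seen in the counts listed under genes that most cells use. Of 15 widely used reference genes, among them Actb, Gapdh, Eef1a1 and Rplp0, 13 were tested, 9 were lower, all 13 had a log2 fold change below 0, and their median was -0.93, which is further from 0 than the median of the matrix genes. Their share of all counts was 0.889% ± 0.131 (SD, n = 3) in control and 0.453% ± 0.0538 (SD, n = 3) in EV libraries. Whether matrix genes and reference genes differed in their change was not tested.

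Genes without an exon on the opposite strand had a median log2 fold change of -0.19, and those with one had a median of 0.16. Of the former 19.4% were lower and of the latter 8.71%. Among the matrix genes the 2 classes were close to each other. Without an opposite-strand exon, 29 of 33 were tested, 18 were lower and the median was -0.77, and with one, 10 of 14 were tested, 6 were lower and the median was -0.74. When the fit was repeated with only the 2747 tested genes that have no opposite-strand exon, 14 of these 29 matrix genes were lower and the median was -0.59, beside 12% lower and a median of -0.019 over all genes of that fit.

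**Figure D2:**
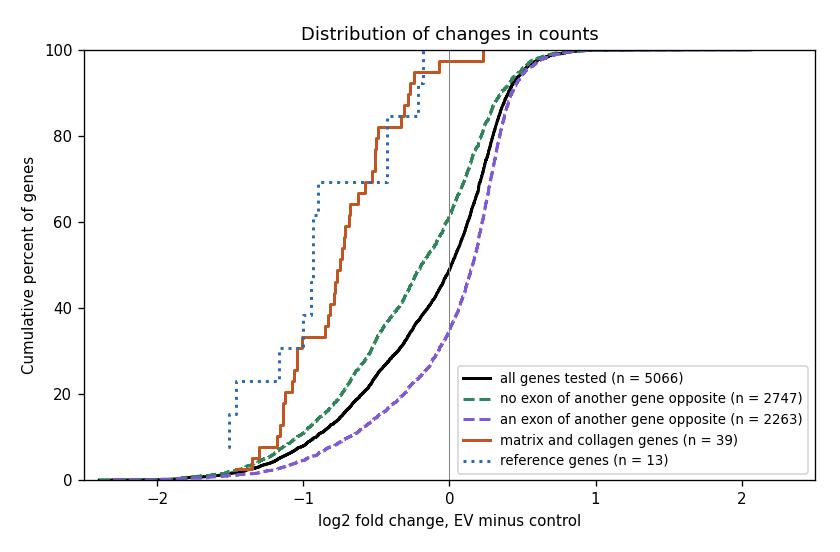
Cumulative percent of genes (vertical axis) at or below a log2 fold change of EV against control (horizontal axis), for all 5066 tested genes, those with and without an opposite-strand exon, the 39 matrix genes and the 13 reference genes. The matrix genes and the reference genes both lie left of all genes, with medians of -0.75 and -0.93 against 0.014.

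The fibrillar collagens, which form the tensile fibres of connective tissue, had 5 of 5 genes tested and 4 lower, with a median log2 fold change of -1.06. Col1a1, on chromosome 11 (94936224 to 94953042), encodes a chain of type I collagen, the most abundant fibrillar collagen, and had 154, 208 and 233 counts in control libraries 1, 2 and 3 and 53, 91 and 84 in EV libraries 1, 2 and 4. All EV libraries were below all controls, and the log2 fold change was -1.18 ± 0.14 (SE, edgeR adjusted p = 5.966e-09). Its partner chain gene Col1a2, on chromosome 6 (4505618 to 4541543), had 227, 328 and 278 counts in control and 75, 152 and 121 in EV libraries, again without overlap and with a change of -1.06 ± 0.13 (SE, edgeR adjusted p = 1.241e-08). The counts listed under the genes of both chains thus fell by amounts that differed by less than the SE of either.

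Col3a1 encodes type III collagen, which accompanies type I in distensible tissues, and lies on chromosome 1 (45311538 to 45349706). It had 162, 233 and 170 counts in control and 71, 85 and 77 in EV libraries. In normalized CPM the EV libraries were almost equal, at 149 ± 1.30 CPM (SD, n = 3), well below the control level of 314 ± 58.2 (SD, n = 3), and the log2 fold change was -1.08 ± 0.14 (SE, edgeR adjusted p = 6.004e-08). Its neighbour Col5a2, on the other strand of chromosome 1 (45374331 to 45503282), encodes a chain of type V collagen, which regulates fibril diameter. It had 72, 90 and 76 counts in control and 36, 49 and 44 in EV libraries, which did not overlap, with a smaller change of -0.68 ± 0.18 (SE, edgeR adjusted p = 0.00429). Col5a1, for the partner chain, had 87, 108 and 97 counts in control and 49, 74 and 79 in EV libraries and did not pass the threshold, at -0.33 ± 0.16 (SE, edgeR adjusted p = 0.126). It passed with total library size (-0.47, edgeR adjusted p = 0.0324) and with the replicate block (-0.52, edgeR adjusted p = 0.0425). The change in the block rests on libraries 1 and 2 of each group.

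The collagens of other types had 5 of 6 genes tested and 3 lower, with a median of -0.63. Col6a1 and Col6a2 encode chains of type VI collagen, which forms beaded filaments around cells, and both lie on chromosome 10 (76708792 to 76726044 and 76595756 to 76623630). Col6a1 had 207, 287 and 233 counts in control and 102, 159 and 133 in EV libraries, with a log2 fold change of -0.68 ± 0.13 (SE, edgeR adjusted p = 5.513e-05). Col6a2 had 162, 219 and 177 counts in control and 91, 121 and 129 in EV libraries, at -0.51 ± 0.13 (SE, edgeR adjusted p = 0.00424). In neither gene did the groups overlap, but Col6a2 lost the call without control library 2 (-0.43, edgeR adjusted p = 0.0553), without a filter (0.0637) and in the fit of genes with no opposite-strand exon (0.0842). Col6a3, for the third chain, had 98, 118 and 97 counts in control and 58, 89 and 79 in EV libraries and did not pass (-0.27, 95% interval -0.58 to 0.039).

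Col16a1 encodes a collagen that binds to the surface of fibrils and had 25, 45 and 44 counts in control and 14, 19 and 25 in EV libraries. The groups overlapped after normalization, since control library 1 was below EV library 4. The log2 fold change was -0.77 ± 0.25 (SE, edgeR adjusted p = 0.0224), and it lost the call without any one of EV library 1, EV library 2, control library 2 or control library 3, with a change of -0.76 to -0.65 and an edgeR adjusted p of 0.0501 to 0.112. It also lost the call without a filter, in the fit of genes with no opposite-strand exon and with the DESeq2 Wald test (adjusted p = 0.106, 0.0817 and 0.14). Col8a1, for a short-chain network collagen, had 11, 11 and 12 counts in control and 5, 6 and 8 in EV libraries and did not pass (-0.63, 95% interval -1.44 to 0.18), and it was the only tested gene of the list with no EV library at the level of the filter. Col12a1, which encodes another fibril-associated collagen, was below the filter with 17, 18 and 11 counts in control and 8, 6 and 6 in EV libraries.

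In the basement membrane class 7 of 8 genes were tested and 6 were lower, with a median of -0.78. Col4a1 and Col4a2 encode the chains of the ubiquitous type IV collagen and lie head to head on chromosome 8 (11198423 to 11312889 on the minus strand and 11312805 to 11449287 on the plus strand). Col4a1 had 206, 280 and 264 counts in control and 73, 123 and 121 in EV libraries, with a log2 fold change of -1.04 ± 0.13 (SE, edgeR adjusted p = 1.241e-08). Col4a2 had 165, 172 and 196 counts in control and 69, 89 and 112 in EV libraries, at -0.78 ± 0.14 (SE, edgeR adjusted p = 3.368e-05). In both genes all EV libraries were below all controls. Their exons overlap on opposite strands by 22 bases, so reads over those bases could be listed under either gene.

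Laminins are heterotrimers that self-assemble into the basement membrane network. Lama4, the gene of the laminin alpha 4 chain on chromosome 10 (38965515 to 39110188), had 37, 47 and 40 counts in control and 10, 15 and 14 in EV libraries. The groups were far apart, and its log2 fold change of -1.46 ± 0.26 (SE, edgeR adjusted p = 3.451e-05) was the furthest below 0 of the 39 tested genes, on low counts. Lamb1, for the beta 1 chain, had 35, 59 and 52 counts in control and 18, 35 and 23 in EV libraries, at -0.74 ± 0.23 (SE, edgeR adjusted p = 0.0145), and it lost the call without any one of EV library 1, EV library 4 or control library 2, with a change of -0.67 to -0.61 and an edgeR adjusted p of 0.064 to 0.103. The call was also lost without a filter, in the fit of genes with no opposite-strand exon and with the DESeq2 Wald test (adjusted p = 0.0855, 0.0673 and 0.0997). Lamc1, for the gamma 1 chain, had 38, 51 and 34 counts in control and 20, 26 and 30 in EV libraries, which overlapped after normalization, and it did not pass (-0.49 ± 0.23, edgeR adjusted p = 0.116). It passed without control library 3 (-0.71, edgeR adjusted p = 0.0316) and with the replicate block (-0.80, edgeR adjusted p = 0.0254), where the change rests on libraries 1 and 2 of each group.

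Nid1 encodes nidogen 1, which bridges the laminin and type IV collagen networks, and lies on chromosome 13 (13437602 to 13512275). It had 295, 327 and 320 counts in control and 114, 180 and 194 in EV libraries, with no overlap and a log2 fold change of -0.75 ± 0.12 (SE, edgeR adjusted p = 3.44e-06). Hspg2, the gene of the heparan sulfate proteoglycan perlecan, had 50, 60 and 62 counts in control and 20, 32 and 32 in EV libraries, at -0.83 ± 0.21 (SE, edgeR adjusted p = 0.00291). Nid2, the gene of nidogen 2, had at most 4 counts in a library and was below the filter.

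The glycoproteins, elastic fibre proteins and proteoglycans had 8 of 12 genes tested and 7 lower, with a median of -1.03. Fn1, on chromosome 1 (71585473 to 71653280), encodes fibronectin, the adhesive protein on which fibroblasts lay down other matrix. It had the most counts of the list in the control libraries, 391, 440 and 391, and 134, 177 and 174 in EV libraries, far from overlapping. The log2 fold change of -1.14 ± 0.11 (SE, edgeR adjusted p = 1.733e-11) had the lowest adjusted p of the 39 genes. Fbln2, for fibulin 2, a protein of elastic fibres and basement membranes on chromosome 6 (91212460 to 91272540), had 181, 277 and 228 counts in control and 54, 112 and 102 in EV libraries, at -1.16 ± 0.15 (SE, edgeR adjusted p = 1.221e-08).

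Sparc and Postn encode the matricellular proteins osteonectin and periostin, which bind collagen and take part in its fibril formation. Sparc, on chromosome 11 (55394159 to 55420080), had 121, 169 and 163 counts in control and 53, 64 and 78 in EV libraries, with a log2 fold change of -1.01 ± 0.15 (SE, edgeR adjusted p = 8.24e-07). Postn, on chromosome 3 (54359267 to 54391041), had 82, 102 and 72 counts in control and 26, 43 and 39 in EV libraries, at -1.04 ± 0.19 (SE, edgeR adjusted p = 4.425e-05). Neither gene had overlapping groups.

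The small leucine-rich proteoglycans decorin and biglycan bind collagen fibrils. Dcn fell by 1.35 on the log2 scale, from 32, 55 and 31 counts in control to 10, 16 and 14 in EV libraries (SE 0.28, edgeR adjusted p = 0.000274), and Bgn fell by 0.58, from 117, 174 and 117 to 64, 94 and 80 (SE 0.15, edgeR adjusted p = 0.0048). Bgn lost the call without control library 2 (-0.42, edgeR adjusted p = 0.101), without a filter (0.0572) and in the fit of genes with no opposite-strand exon (0.0613). Fbn1, for the microfibril protein fibrillin 1, fell by 0.51, from 66, 82 and 67 counts to 40, 43 and 48 (SE 0.18, edgeR adjusted p = 0.0355), and it lost the call without any one of the 3 EV libraries, control library 1 or control library 2, with a change of -0.58 to -0.44 and an edgeR adjusted p of 0.0551 to 0.138. Without a filter and with the DESeq2 Wald test it did not pass either (adjusted p = 0.186 and 0.161). A gene that was not analysed here overlaps the exons of Fbn1 on the opposite strand by 2442 bases. Fstl1, for a secreted follistatin-like glycoprotein, had 117, 129 and 114 counts in control and 76, 101 and 88 in EV libraries and did not pass (-0.24, 95% interval -0.53 to 0.047).

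Tnc, the gene of tenascin C, which is prominent in wound matrix, had 7, 6 and 8 counts in control and 9, 8 and 7 in EV libraries. After normalization it was at 12.9, 9.76 and 12.5 CPM in control and 19.0, 14.1 and 13.4 in EV libraries, so that all EV libraries were above the controls. It was below the filter, and in the fit without a filter it did not pass (log2 fold change 0.47 ± 0.41, edgeR adjusted p = 0.595). Emilin1, for an elastic fibre glycoprotein, was also below the filter, with 5, 7 and 12 counts in control and 2, 5 and 6 in EV libraries. Lum, for lumican, was at 0 in every library and Eln, for elastin, had at most 1 count in a library. Both were under the floor of 3 counts per library, and no fold is given for them.

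**Figure D3:**
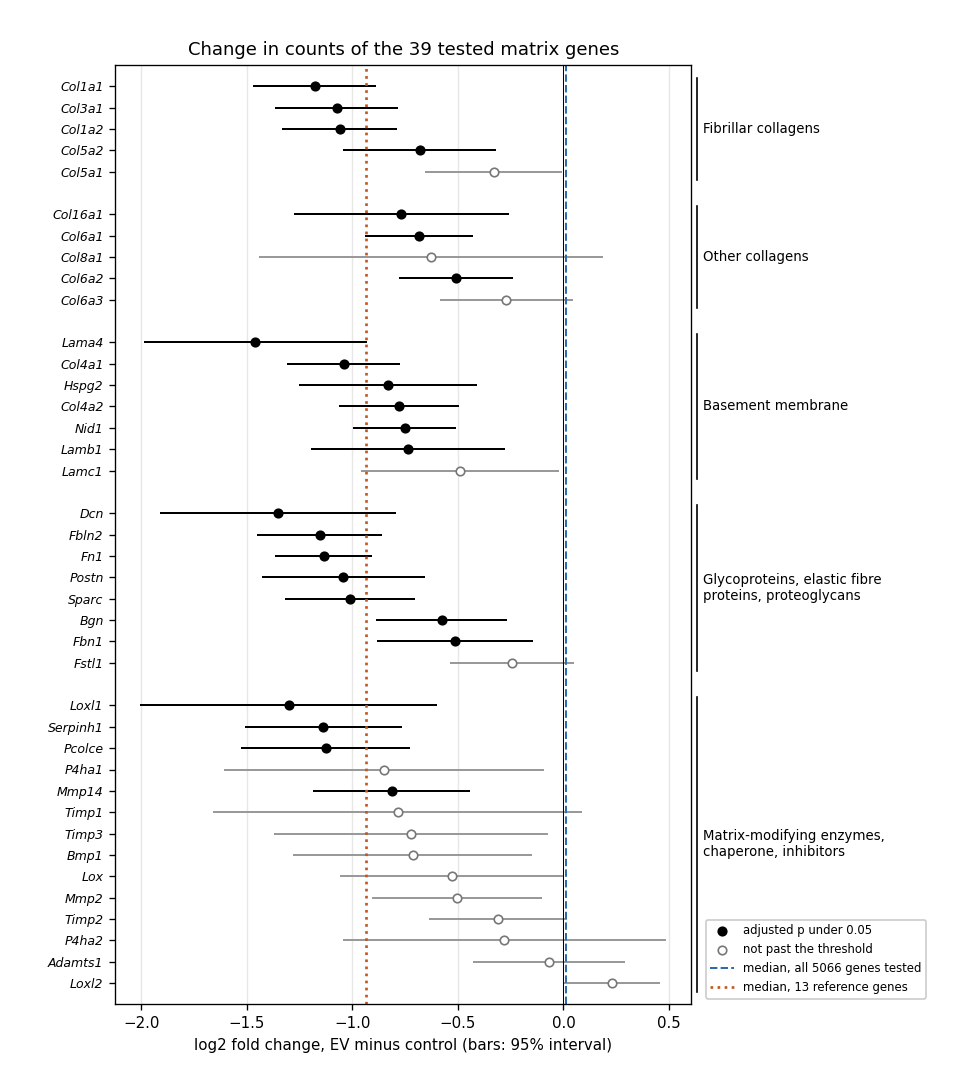
Log2 fold change of EV against control (horizontal axis) with its 95% interval for the 39 tested matrix genes, by class, filled where the edgeR adjusted p was under 0.05. The dashed line is the median of all 5066 tested genes (0.014) and the dotted line that of the 13 reference genes (-0.93). The 24 filled points all lie below 0.

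Among the enzymes that modify or degrade matrix, the collagen chaperone and the protease inhibitors, 14 of 16 genes were tested and only 4 were lower, although the median, -0.72, was close to that of the whole list. Its uncalled genes ranged from Timp1, with 2 to 13 counts per library, to Loxl2, with 228 to 276, and its 4 lower genes were the chaperone, a proteinase enhancer, a crosslinking enzyme and a membrane-bound proteinase. Whether the classes differed was not tested.

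Serpinh1, on chromosome 7 (99345375 to 99353239), encodes HSP47, the endoplasmic reticulum chaperone of procollagen. It had 76, 120 and 93 counts in control and 28, 43 and 43 in EV libraries, without overlap, and its log2 fold change was -1.14 ± 0.18 (SE, edgeR adjusted p = 4.421e-06). Pcolce encodes the enhancer of the proteinase that removes the carboxyl end of procollagen and lies on chromosome 5 (137605105 to 137611522). It had 73, 75 and 81 counts in control and 24, 27 and 40 in EV libraries, with a similar change of -1.13 ± 0.20 (SE, edgeR adjusted p = 2.17e-05). The proteinase itself is encoded by Bmp1, which had 25, 32 and 30 counts in control and 8, 24 and 14 in EV libraries. All EV libraries were below the controls, but the change of -0.72 ± 0.28 (SE) did not pass (edgeR adjusted p = 0.0572). It passed without EV library 2 (-1.12, edgeR adjusted p = 0.0209) and with total library size (-0.85, edgeR adjusted p = 0.0281).

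The hydroxylases that act before the triple helix folds gave few counts. P4ha1 and P4ha2, which encode catalytic subunits of prolyl 4-hydroxylase, had between 3 and 18 counts per library and did not pass, at -0.85 (95% interval -1.60 to -0.10) and -0.28 (95% interval -1.04 to 0.48). Without EV library 2, P4ha1 passed (-1.39, edgeR adjusted p = 0.0331). The lysyl hydroxylase genes Plod1 and Plod2 had at most 8 counts in a library and were below the filter.

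The lysyl oxidases crosslink collagen and elastin, and 1 of their 3 genes in the list passed. Whether the 3 differed from each other was not tested. Loxl1, on chromosome 9 (58287723 to 58313212), fell from 17, 22 and 24 counts in control to 5, 6 and 11 in EV libraries, a log2 fold change of -1.30 ± 0.35 (SE, edgeR adjusted p = 0.00517), although with the Wald test of DESeq2 it did not pass (adjusted p = 0.0624). In the other matrix genes described below, Loxl4 was lower (-1.06, edgeR adjusted p = 0.0358) and Loxl3 did not pass (0.19, edgeR adjusted p = 0.0967). Lox had 20, 40 and 38 counts in control and 12, 27 and 20 in EV libraries, which overlapped, and it did not pass (-0.53 ± 0.26, edgeR adjusted p = 0.137). Loxl2, on chromosome 14 (69608692 to 69695834), was the one gene of the 39 tested with a positive fold change. It had 228, 253 and 276 counts in control and 260, 244 and 265 in EV libraries, and its groups overlapped after normalization. Its log2 fold change, 0.23, did not pass (95% interval 0.0069 to 0.45, edgeR adjusted p = 0.126). A gene that was not analysed here overlaps its exons by 301 bases on the opposite strand.

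Mmp14 encodes the membrane-anchored metalloproteinase that cleaves fibrillar collagen and activates the gelatinase encoded by Mmp2. Mmp14, on chromosome 14 (54431598 to 54442456), had 71, 91 and 79 counts in control and 33, 39 and 47 in EV libraries, without overlap and with a log2 fold change of -0.81 ± 0.18 (SE, edgeR adjusted p = 0.000868). Mmp2 had 55, 58 and 55 counts in control and 32, 40 and 31 in EV libraries, also without overlap, at -0.50 ± 0.20 (SE, edgeR adjusted p = 0.0582). It passed without control library 3 (-0.62, edgeR adjusted p = 0.0351), with total library size (0.018) and with at least 10 counts in every library (0.0365). Adamts1, for a proteoglycan-cleaving proteinase, had 82, 74 and 61 counts in control and 65, 60 and 55 in EV libraries, with overlapping groups and a log2 fold change of -0.069 (95% interval -0.43 to 0.29).

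None of the 3 tested TIMP genes passed. Timp2 had 104, 93 and 93 counts in control and 53, 83 and 68 in EV libraries (-0.31, edgeR adjusted p = 0.154), and Timp1 had 8, 13 and 13 against 2, 11 and 4 (-0.79, edgeR adjusted p = 0.183). Timp2 passed with total library size (-0.45, edgeR adjusted p = 0.0431), and Timp1 without EV library 2 (-1.61, edgeR adjusted p = 0.0346). Timp3 had 16, 23 and 20 counts in control and 8, 13 and 10 in EV libraries, without overlap, at -0.72 ± 0.32 (SE, edgeR adjusted p = 0.0959). Of the 15 tested genes of the list that did not pass, 7 had a 95% interval that held 0.

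CPM per kilobase of exon set the listed counts of genes of different length side by side, with the same limit on strand as above. On this scale, control libraries had the highest values for Col6a1 (92.3), Loxl2 (77.9), Nid1 (75.7), Sparc (66.2) and Serpinh1 (65.6), and EV libraries for Loxl2 (91.7), Col6a1 (57.1) and Nid1 (44.7). Col1a1 was at 50.1 in control and 22.0 in EV libraries, ranking 9 in the former and 14 in the latter.

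Matrix genes and the genes on their opposite strand were set side by side, since reads over the bases they share cannot be told apart without strand. These bases are a part of each gene, 292 of 11685 exon bases in Fn1. They do not bound the limit on strand given above. A strand setting that did not match the kit would bear on every exon base of a gene, which was not tested. Fn1 is paired in GENCODE with Apol7d, with 292 bases of exon in common, although the RefSeq coordinates of Apol7d (chromosome 1, 71653335 to 71662843) start beyond the end of Fn1. Apol7d had 1844, 1879 and 2350 counts in control and 1885, 2069 and 2179 in EV libraries. Its groups overlapped and its log2 fold change was 0.22 ± 0.084 (SE, edgeR adjusted p = 0.0487), in the other direction from Fn1. This call was near the threshold: it was lost without any one library other than control library 3, with a change of 0.12 to 0.27 and an edgeR adjusted p of 0.0531 to 0.376. It was also lost with total library size (0.403), the DESeq2 Wald test (0.0549), no filter (0.062), at least 10 counts in every library (0.25) and the replicate block (0.0621, all adjusted p). Syn3, on the opposite strand of Timp3 with 1733 bases in common, had 1337, 1326 and 1602 counts in control and 1272, 1587 and 1391 in EV libraries, which after normalization were all above the controls, and its change of 0.19 did not pass (edgeR adjusted p = 0.0848). Rtraf, opposite Nid2 with 437 bases in common, had 54, 79 and 66 counts in control and 63, 62 and 55 in EV libraries, with overlapping groups (log2 fold change 0.059, edgeR adjusted p = 0.835).

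**Figure D4:**
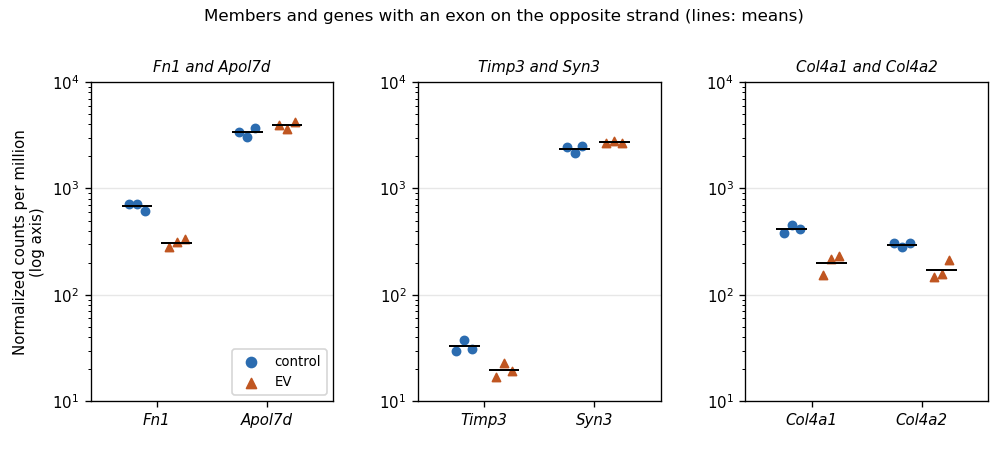
TMM-normalized CPM, on a log axis, in each control library (circles) and EV library (triangles) for 3 pairs of genes whose exons lie opposite each other, with lines at the means. Fn1 and Timp3 have fewer counts than Apol7d and Syn3 in all 6 libraries and lower means in EV, while Apol7d and Syn3 have higher means in EV, and Col4a1 and Col4a2 are both lower in EV.

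Of 62 other genes of the matrix, not part of the list of 47, 27 were tested, 8 were lower and 1 was higher, beside 14.4% and 7.68% of all tested genes, with a median log2 fold change of -0.25. Whether they differed from the list of 47 was not tested. Thbs1 and Thbs2, for the matricellular thrombospondins, fell by 1.44 (SE 0.18, edgeR adjusted p = 1.241e-08) and 1.11 (SE 0.20, edgeR adjusted p = 3.738e-05). Vcan, for the large proteoglycan versican, had 111, 188 and 149 counts in control and 48, 82 and 58 in EV libraries (-1.05 ± 0.16, edgeR adjusted p = 1.186e-06). P4hb, for the other subunit of prolyl 4-hydroxylase, fell by 0.67 (SE 0.18, edgeR adjusted p = 0.00615). Ppib, for a prolyl isomerase that acts on procollagen, fell by 1.64 (SE 0.35, edgeR adjusted p = 0.000409). It had 19, 25 and 36 counts in control and 2, 10 and 10 in EV libraries, and it has a gene on its opposite strand. Mmp19, for a secreted metalloproteinase, was the 1 higher gene, with 304, 295 and 384 counts in control and 356, 378 and 375 in EV libraries (0.38 ± 0.10, edgeR adjusted p = 0.00642), and exons of 2 genes lie opposite it. Its call was lost with total library size and without control library 2.

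The direction of the list was the same under each scaling used. With TMM, with edgeR's RLE scaling (the size-factor method of DESeq2) and with the total library size, 38 of 39 genes had a log2 fold change below 0. The median of all tested genes was 0.014, 0.0325 and -0.12 in these fits. With total library size the values of all genes were thus lower by more than 0.1. These shifts are small beside the list's median of -0.75, so these scalings could hardly turn its direction. A scaling to the reference genes, whose median was -0.93 with TMM, was not made. Of the 24 lower genes, 18 passed in every alternative in which they were tested, and the other 6 were Bgn, Col16a1, Col6a2, Fbn1, Lamb1 and Loxl1.

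**Figure D5:**
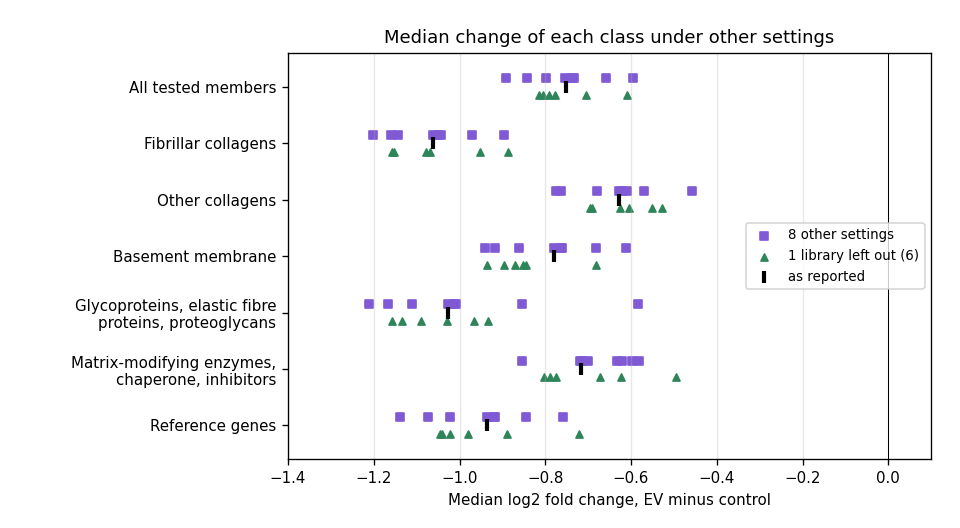
Median log2 fold change (horizontal axis) of all tested matrix genes, of each class and of the reference genes, as reported (bar), under 8 other settings of scaling, test, filter or gene set (squares) and with 1 library left out (triangles). All medians shown lie below 0, and that of all matrix genes ranges from -0.89 to -0.59.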

How the data were processed

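Read quality was assessed with FASTQC, alignment to mm10 used STAR, and the authors obtained a count per gene from Rsubread. The deposited table holds these raw counts by Entrez identifier, not normalized, with 1 column per library. Versions, annotation release and strand setting are not given in the sources used here. Groups came from the sample labels. The columns that belonged to no sample were 0. Symbols and coordinates were taken from RefSeq GRCm38.p6 (99.8% of identifiers matched), and opposite-strand exons from GENCODE M21 (98.8%).

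The quasi-likelihood test of edgeR 4.0.16 (R 4.3.3) was applied after filterByExpr and TMM scaling, with no covariates, and Benjamini-Hochberg adjustment covered all 5066 genes tested. The common biological coefficient of variation was 0.0779. The SE of a log2 fold change is its size over the root of F. Replicates of a group were separate plates, and each pair differed by more than sampling noise. The totals of 508599 to 665465 counts are a small part of the reads that the authors state the sequencing was set to obtain. The reason was not tested, so a low or absent count need not mean low expression. These totals limit precision, and counts of 3 or fewer in every library were given no fold.

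Alternatives were RLE scaling in edgeR, the size-factor method of DESeq2, and the Wald test of DESeq2 1.42.0. Others were total library size (over the genes tested), no filter, at least 10 counts in every library, and the replicate number as a block. Further ones were genes with no opposite-strand exon, and each library left out. In the block, control library 3 and EV library 4 share no number with the other group and add nothing to the estimated change. The legacy quasi-likelihood fit was added after seeing the data. The fits were tested on simulated data. The genes, their classes and the other lists were chosen with earlier results of these data known. Values of every library are given for up to 4 genes per class with the lowest adjusted p past the threshold, for any higher gene and for Col1a1, Col1a2, Fn1 and Tnc, for tested opposite-strand genes, and up to 5 other matrix genes per direction are named. Other genes are given with their counts to account for the whole list.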

Additional observations from a re-analysis of the deposited data

How the results depend on the processing

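Across 14 alternatives the number of the 47 matrix genes that were lower in EV libraries was 24 as reported, 28 with total library size, 20 with the DESeq2 Wald test, 19 without a filter and 26 with the replicate number as a block, and none was higher. Over all tested genes the share lower was 14.4%, 19.1%, 5.8%, 3.21% and 13.9% in these fits. Whether the numbers pair the samples is not known. Same-numbered libraries correlated by 0.068 and 0.059 after removal of group means, and differently numbered ones by -0.094 to 0.053. With 3 libraries per group, low counts and only 2 shared numbers, these values cannot decide it. In the block, where control library 3 and EV library 4 add nothing to the change, the other matrix genes gave 6 lower and 1 higher. With only genes that have no opposite-strand exon, which leaves fewer genes, 14 matrix genes were lower, the median was -0.59, other matrix genes gave 3 lower and 0 higher, and 0 opposite-strand partners were left. With total library size the median was -0.89 and 0 other matrix genes were higher. The other matrix genes gave 4 lower with the Wald test, without a filter and with at least 10 counts in every library, and without a filter the glycoprotein class median was -0.58, because genes with few counts entered it. With 1 library left out, the matrix genes gave 19 to 25 lower, beside 8.29% to 15.7% of all tested genes. Their median was -0.81 to -0.61 and, for the enzyme class, -0.80 to -0.50, lowest in size without EV library 1. The other matrix genes gave 4 to 9 lower and 0 to 2 higher. Adamts1, which did not pass, turned to 0.016 without a filter and 0.10 with only genes that have no opposite-strand exon, and ranged from -0.28 (without control library 3) to 0.056 (without control library 1) with 1 library left out. The cause was not tested. Of single genes past the threshold, 6 lost it in at least 1 alternative, and 7 others gained it. Genes with fewer than about 20 counts per library had intervals too wide to tell a small change from none.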
